A study of Mus musculus with 5 samples.

Results

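The 42 genes described here copy DNA or supply its building blocks. They were chosen by name for their known roles in replication, with no threshold on a measured value but with earlier results of these data known, and all 42 had a row among the 27998 genes of each of the 5 count tables. They fall into 6 roles: origin licensing (4 genes), the replicative helicase (12), the sliding clamp and its loader (6), polymerases and primase (9), flap removal, ligation and single-strand binding (5), and nucleotide supply with uracil removal (6). Every member had at least 1 unique molecular identifier (UMI, a tag that marks 1 captured RNA molecule) in B-lineage cells of every library.

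The 5 mouse bone marrow libraries were made with droplet counting of RNA 3' ends: young 1, young 2 and young 3 from mice of 10 to 12 weeks, and aged 2 and aged 3 from mice over 20 months. The strain was Nes-GFP in every group. Cells without surface CD45 and with CD31 were taken from endosteal preparations, then frozen and thawed, and the PCR cycles were set sample by sample. The labels call the cells endothelial and the libraries replicates, and the design text calls the replicates biological, without naming animals or pools, so that each p-value below measures the spread between these 5 libraries only.

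The data went against the endothelial label. Of 2116 barcodes kept, 20 were endothelial-like (all 14 endothelial markers were detected there) and 1908 carried B-lineage markers. The other 188, called myeloid below, lay in a cluster led by S100a8 and S100a9. The B-lineage cells numbered 709, 223, 309, 280 and 387 in young 1, young 2, young 3, aged 2 and aged 3, the order used for every run of 5 values below. Clusters built on marker genes alone, with no member and no cell cycle gene among them, gave pro-B-like cells (299), small pre-B-like cells (541) and cells like MHC-II-expressing immature B cells (463, from 2 clusters, of which the larger had the mitotic genes Ube2c and Cdc20 among its leading genes). A cluster of 481 cells led by Nrgn, Pclaf, Top2a and Esco2 stayed unnamed, as did an Igll1-expressing cluster of 124 cells. Young 1 stood apart: it held 386 of those 481 cells and 174 of the 188 myeloid cells. Its table totalled 5900751 UMIs, against 935656 to 1312911 in the others. Results are therefore given with and without it. Libraries shared 26 barcodes in all and 5 among those kept.

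DNA replication starts when the origin recognition complex, CDC6 and CDT1 load the ring-shaped MCM helicase on DNA in G1. CDC45 and the GINS complex then switch the helicase on, primase and the polymerases copy each strand behind it, and PCNA tethers the polymerases while ligase seals the fragments. In bone marrow the large dividing precursors of B cells alternate with resting stages in which immunoglobulin genes are cut and joined, and most replication genes are transcribed from late G1 into S phase under E2F factors.

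The promoters of the members were read from RefSeq on GRCm38.p6, which held 40 start sites for 35 of the 42 genes (none for Gins1, Gins2, Gins4, Mcm4, Pole, Prim2 and Rfc2). In the 250 bases upstream, the 7-letter core of an E2F-type element, TTCCCGC or TTGGCGC on either strand, was present at 11 of the 40 start sites (27.5%), against 5.62% of all 32851 start sites in the table. The longer forms TTTCCCGC and TTTGGCGC, which contain those cores, were present at 6 (15%) against 1.30%. CCAAT, the letters read by the factor NF-Y, was present at 22 (55.0%) against 33.8%. TTTGAA, the core of the element called CHR in mitotic genes, was present at 5 (12.5%) against 16.0%. These are matches of letters and do not show binding. Below, capitals mark the E2F-type cores, CCAAT and its reverse complement ATTGG. Stretches are shown for a helicase gene with both kinds of match (Mcm6), a helicase gene with CCAAT alone (Mcm3), both subunits of ribonucleotide reductase (Rrm1, Rrm2) and a polymerase gene with none of these letters (Pold1). Each is written 5' to 3' toward the start site, on the minus strand for Mcm6, Mcm3 and Pold1. For Rrm2 and Pold1 the bases that the annotation places in an exon are left out.
Mcm6, chr1:128359706-128359955: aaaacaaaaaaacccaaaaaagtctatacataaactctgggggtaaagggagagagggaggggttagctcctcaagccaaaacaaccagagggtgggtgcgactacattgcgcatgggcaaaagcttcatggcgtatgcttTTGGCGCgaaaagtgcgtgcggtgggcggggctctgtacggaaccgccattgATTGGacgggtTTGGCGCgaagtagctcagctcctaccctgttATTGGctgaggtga
Mcm3, chr1:20820313-20820562: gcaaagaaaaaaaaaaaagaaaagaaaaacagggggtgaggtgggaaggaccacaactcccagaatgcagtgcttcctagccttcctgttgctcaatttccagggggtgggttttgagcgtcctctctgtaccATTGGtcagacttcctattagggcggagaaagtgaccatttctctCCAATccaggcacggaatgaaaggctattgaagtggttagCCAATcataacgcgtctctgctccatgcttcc
Rrm1, chr7:102441445-102441694: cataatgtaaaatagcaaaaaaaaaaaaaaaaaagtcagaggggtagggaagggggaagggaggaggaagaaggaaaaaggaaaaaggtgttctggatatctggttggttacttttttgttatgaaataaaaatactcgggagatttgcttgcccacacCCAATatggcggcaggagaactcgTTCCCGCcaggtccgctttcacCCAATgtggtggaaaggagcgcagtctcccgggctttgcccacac
Rrm2, chr12:24708004-24708240: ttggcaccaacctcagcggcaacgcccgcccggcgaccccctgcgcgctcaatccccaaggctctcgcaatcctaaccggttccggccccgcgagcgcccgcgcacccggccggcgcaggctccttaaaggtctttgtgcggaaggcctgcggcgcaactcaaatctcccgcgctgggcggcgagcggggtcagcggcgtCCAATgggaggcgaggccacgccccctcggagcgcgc
Pold1, chr7:44548850-44549065: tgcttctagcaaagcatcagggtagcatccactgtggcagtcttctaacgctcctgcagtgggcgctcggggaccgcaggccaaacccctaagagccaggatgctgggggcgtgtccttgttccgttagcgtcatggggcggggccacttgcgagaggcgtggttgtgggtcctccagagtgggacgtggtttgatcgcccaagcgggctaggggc

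All 6 roles were highest in B-lineage cells of young 1. As UMIs scaled to a total of 1000000 in the same cells (CPM), the 42 genes together reached 6273, 3483, 2516, 2934 and 2406. Young 1 lies above the other 4, whose young and aged values overlap. Nucleotide supply stood at 1802, 813, 605, 620.4 and 541 CPM, and the helicase at 1458, 970.3, 666, 855 and 655 CPM. The polymerases and primase differed least between libraries relative to their level, at 553, 395, 331, 360.3 and 321 CPM. By gene, 40 of the 42 had their highest level in young 1, the exceptions being Prim2 and Pold1. Young 1 supplied 70.1% of all member UMIs, with 37.2% of the B-lineage cells and 51.5% of their UMIs, and its part ran from 48.3% of Prim2 UMIs to 80.9% of Rpa3 UMIs.

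Counting cells at equal depth also set young 1 apart. Each cell was thinned at random to 1000 UMIs, and a cell with at least 3 member UMIs was counted. In young 1 this held for 75.3% of B-lineage cells (95% exact binomial interval 72.0 to 78.5%). In the other libraries it held for 14.3% (10.0 to 19.6%), 16.5% (12.5 to 21.1%), 15.4% (11.3 to 20.1%) and 15.2% (11.8 to 19.2%). Without thinning the shares were 91.4, 46.2, 30.1, 44.6 and 31.0%. For scale, 1 of the 20 endothelial-like cells reached 3 UMIs (5%, 0.13 to 24.9%). That interval contains the shares of young 2, young 3, aged 2 and aged 3. The endothelial-like cells had a median depth of 2255.5 UMIs before thinning, near the 2757 of the B-lineage cells. Over all libraries 218 B-lineage cells had 2 member UMIs and 96 had 3, the cells on either side of the threshold. Cells with no member UMI made up 8.04% in young 1 and 34.1 to 43.0% elsewhere. Intervals here and below cover counting error only.

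**Figure D1:**
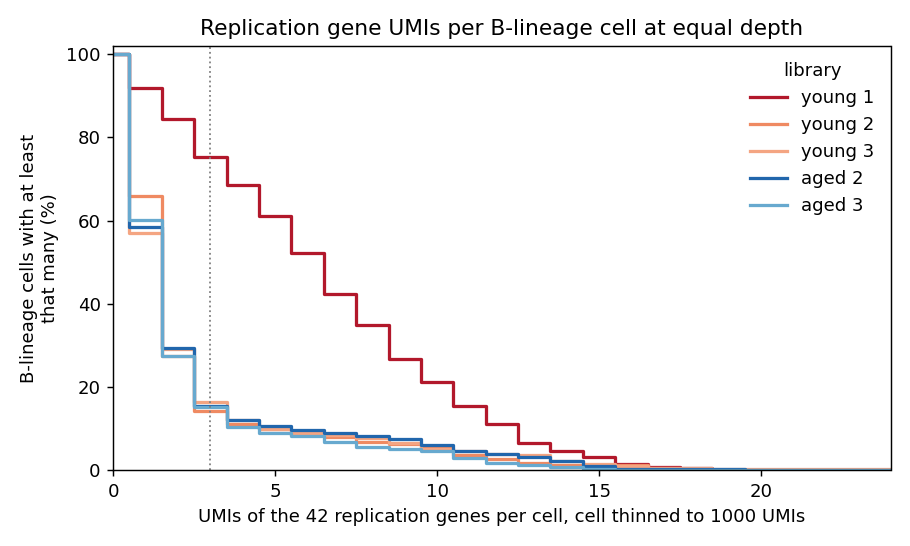
Share of B-lineage cells (vertical axis, %) with at least the number of UMIs of the 42 replication genes on the horizontal axis, each cell thinned to 1000 UMIs. The dotted line marks 3 UMIs, where young 1 stands at 75.3% and the other 4 libraries lie between 14.3 and 16.5%.

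Cells were then grouped by cell cycle genes that are not members. The G2/M gate took cells with at least 2 UMIs, after thinning, from a list of 35 G2/M genes such as Top2a, Mki67 and Cenpf. The S gate took cells below that with at least 2 UMIs from 31 other S phase genes such as Hells, Uhrf1 and Clspn, and a further group had no UMI from either list. A cell at the threshold for both lists thus entered the G2/M gate, so that gate can hold cells in S phase. The G2/M gate held 75.2, 14.3, 12.3, 8.21 and 11.1% of B-lineage cells. The S gate held 10.3, 8.97, 10.7, 12.1 and 4.91%, and the group with neither held 5.08, 43.5, 46.3, 41.1 and 48.8%. Young 1 is high in the first and low in the last, and lies among the other libraries in the S gate. Gated cells carried 96.5, 85.8, 75.9, 77.3 and 70.5% of all member UMIs, while holding 90.3, 39.2, 31.2, 32.1 and 25.9% of all UMIs of the B-lineage cells.

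Inside the G2/M gate young 1 no longer led. There the 42 genes together stood at 6654, 8489, 7566, 8019 and 7287 CPM, and young 1 was the lowest of the 5. In the S gate they stood at 7064, 4193, 4089.6 and 6145 CPM in young 1, young 2, young 3 and aged 2, the order of every run of 4 values below, and young 1 was the highest of those. Aged 3 had 19 cells in that gate, under the 20 required for a sum. In cells with neither, they stood at 1783, 841, 803, 839 and 841 CPM, with young 1 (36 cells) above the other 4, which lie close together. Other lists differed in those cells of young 1 too: 14 neutrophil genes summed to 323 CPM, against 3.69 to 189 in the other libraries, and 12 pan-B genes to 12696 CPM, against 19484 to 22153. Over all B-lineage cells the pan-B genes summed to 10691 CPM in young 1 and 17544 to 19410.5 elsewhere, and the part of these in the members' levels was not tested. No S or G2/M sum overlapped a sum of cells with neither.

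**Figure D2:**
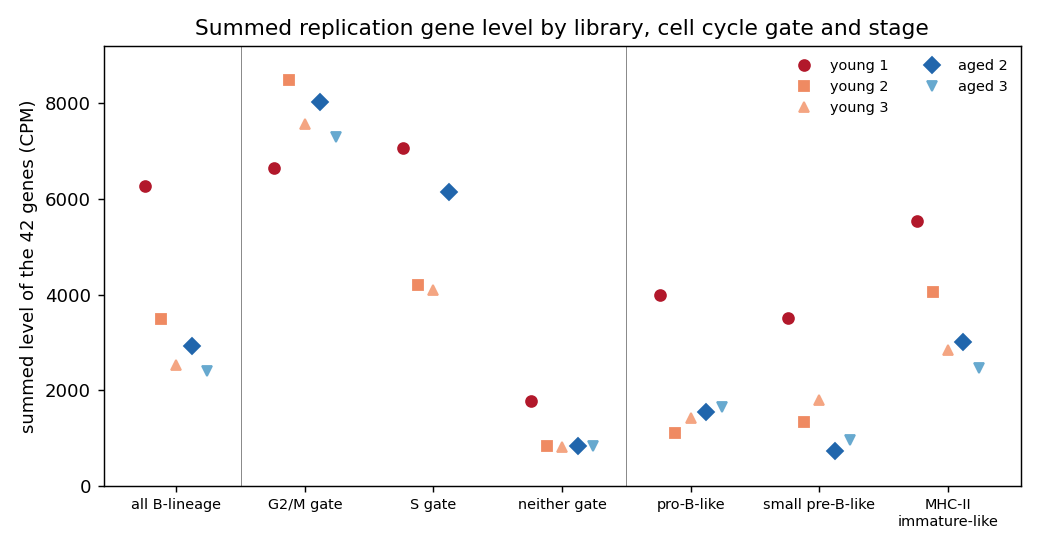
Summed level of the 42 replication genes (CPM, linear axis from 0) in each library for all B-lineage cells, the cell cycle gates and the 3 named stages. Each symbol is 1 library; young 1 is highest among all B-lineage cells (6273 CPM) and lowest in the G2/M gate (6654 CPM).

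Compared with cells with no gate UMI, 33 of the 37 members that passed the filter on low counts rose in the S gate and 0 fell (edgeR quasi-likelihood test, library as a term, Benjamini-Hochberg adjusted p under 0.05). Of the 4030 genes tested, 11.4% rose and 4.64% fell. In the G2/M gate 35 of the same 37 rose and 0 fell, where 21.9% of all genes rose and 17.9% fell. The median log2 fold change of the 37 was 2.63 in the S gate and 2.97 in the G2/M gate, against -0.02 for all genes in both. Both gates were set against the same cells with neither, so the contrasts are not independent. Without young 1, 28 of 35 members rose in the S gate and 33 of 35 in the G2/M gate, where 6.04 and 21.3% of all genes rose. Members outside the filter were Orc1, Mcm10, Gins3, Pole and Pole2, with 59, 170, 123, 182 and 129 UMIs in all B-lineage cells. Sums of a single gate could meet the filter, so that passing it is not independent of the rise, here and in the counts by gate below. With no filter 36 and 39 of the 42 rose. Because lists of S and G2/M genes defined the cells, these folds compare cells rich in cycle transcripts with cells in which none was sampled, and free RNA was not modelled.

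In origin licensing, Orc6, a subunit of the origin recognition complex, stood at 41.5, 11.1, 13.5, 9.25 and 16.2 CPM in cells with neither, 198, 109, 87.5 and 117 in the S gate and 213, 280.3, 100.2, 245 and 243 in the G2/M gate. The gated sums lie above every sum of cells with neither, and the rise was 3.19 ± 0.36 (log2 fold change ± SE, adjusted p 9e-08, edgeR) in S and 3.74 ± 0.29 in G2/M. Cdc6, which loads the helicase with CDT1, stood at 8.29, 0, 6.74, 0 and 0 CPM in cells with neither. It reached 55.8, 0, 43.7 and 19.5 CPM in the S gate and 67.3, 132, 69.3, 113 and 62.04 in the G2/M gate, where it was detected in every library. Its fitted rise was 3.95 ± 0.80 in S and 5.05 ± 0.61 in G2/M (adjusted p 0.0007 and 7.2e-08, edgeR). With 3 of 5 libraries at 0 among cells with neither, these sizes depend on the fit. Cdt1 rose less, by 1.78 ± 0.33 and 2.02 ± 0.28, from 24.9, 40.6, 10.1, 24.7 and 16.2 CPM in cells with neither to 116, 97.3, 77.04, 113 and 73.3 in the G2/M gate. Orc1, another subunit of the origin recognition complex, stood at 9.48, 8.53, 5.63, 7.37 and 7.76 CPM over all B-lineage cells and was too sparse to test.

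In the helicase, 8 of the 10 tested members rose in the S gate and all 10 in the G2/M gate. Mcm6, a subunit of the ring whose promoter is printed above, went from 91.2, 29.5, 47.2, 18.5 and 43.1 CPM in cells with neither to 304, 155, 251 and 325 in the S gate and 219, 413, 316, 285 and 361 in the G2/M gate. Its log2 rise was 2.89 ± 0.32 and 2.97 ± 0.27 (adjusted p 5.2e-08 and 3.5e-10, edgeR). Mcm7, another ring subunit, went from 124, 59.02, 33.7, 73.99 and 70.1 CPM to 279, 155, 142 and 384 in the S gate and 284, 362, 385, 451 and 474 in the G2/M gate, a log2 rise of 2.03 ± 0.27 and 2.56 ± 0.22, with no overlap between gated cells and cells with neither. In all, 12 members overlap a protein-coding gene on GRCm38. Mcm7 (chr5:138164583-138172422, minus strand, GRCm38) overlaps Cops6 and Ap4m1 on the other strand, and the sources used here do not say how overlaps were counted. Gins1 and Gins4, of the complex that activates the ring, were the 2 helicase members that missed the threshold in S (1.09 ± 0.40 and 1.14 ± 0.43, adjusted p 0.061 and 0.072, edgeR).

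All 6 genes of the clamp and its loader rose in both gates. Pcna, the clamp itself, stood at 182, 40.6, 57.3, 80.2 and 48.5 CPM in cells with neither, 611, 357, 339 and 605 in the S gate and 625, 806, 963, 689.8 and 795 in the G2/M gate. The groups do not overlap, and the log2 rise was 2.78 ± 0.28 (adjusted p 1e-08, edgeR) and 3.47 ± 0.24. Rfc3, a loader subunit, rose by 1.83 ± 0.27 and 1.98 ± 0.23, to 157, 214, 162, 199 and 186 CPM in the G2/M gate from 24.9, 47.96, 57.3, 36.99 and 56.6.

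All 5 genes of flap removal, ligation and single-strand binding rose in both gates. Lig1, the ligase that joins the fragments of the lagging strand, went from 66.3, 7.38, 20.2, 9.25 and 5.39 CPM in cells with neither to 309.6, 171, 186 and 325 in the S gate and 288, 167, 247, 259 and 265 in the G2/M gate. Young 1 was the highest among cells with neither, below every gated sum. The log2 rise of Lig1 was 3.95 ± 0.34 (adjusted p 7.1e-10, edgeR) and 3.92 ± 0.30. Rpa2, part of the protein that coats single-stranded DNA, rose by 2.63 ± 0.34 and 3.22 ± 0.28, to 213, 311, 269.6, 292 and 169 CPM in the G2/M gate from 58.05, 18.4, 20.2, 30.8 and 16.2.

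All 6 genes of nucleotide supply and uracil removal rose in both gates. Dut, which destroys dUTP so that uracil is kept out of DNA, stood at 207, 33.2, 43.8, 36.99 and 32.4 CPM in cells with neither, 889.6, 373, 339 and 404 in the S gate and 809, 638, 624, 677 and 541 in the G2/M gate. Its log2 rise was 3.03 ± 0.26 and 3.57 ± 0.23 (adjusted p 9.2e-10 and 2.4e-13, edgeR), and young 1 was the highest library in each group. Rrm2, the ribonucleotide reductase subunit made mainly in S phase, had the largest rise of the 37 in the G2/M gate. It stood at 58.05, 14.8, 20.2, 3.08 and 8.09 CPM in cells with neither, 382, 186, 219 and 247 in the S gate and 528, 919, 948, 736 and 852 in the G2/M gate. No library's value in 1 group overlaps another group, and it rose by 4.22 ± 0.40 and 5.65 ± 0.32 (adjusted p 4e-09 and 1.2e-14, edgeR). Gated cells held 93.5 to 98.5% of Rrm2 UMIs in each library. Tk1, thymidine kinase, stood at 24.9, 0, 0, 3.08 and 13.5 CPM in cells with neither and at 117, 93.4, 146, 192 and 158 in the G2/M gate, and its fitted rise was 3.47 ± 0.55 in S and 4.33 ± 0.42 in G2/M, sizes that again depend on the fit. Ung, which cuts uracil out of DNA, rose by 2.28 ± 0.43 in S and by 1.36 ± 0.41 in G2/M, but in young 1 it was lower in the G2/M gate (89.2 CPM) than in cells with neither (141 CPM, 17 UMIs).

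**Figure D3:**
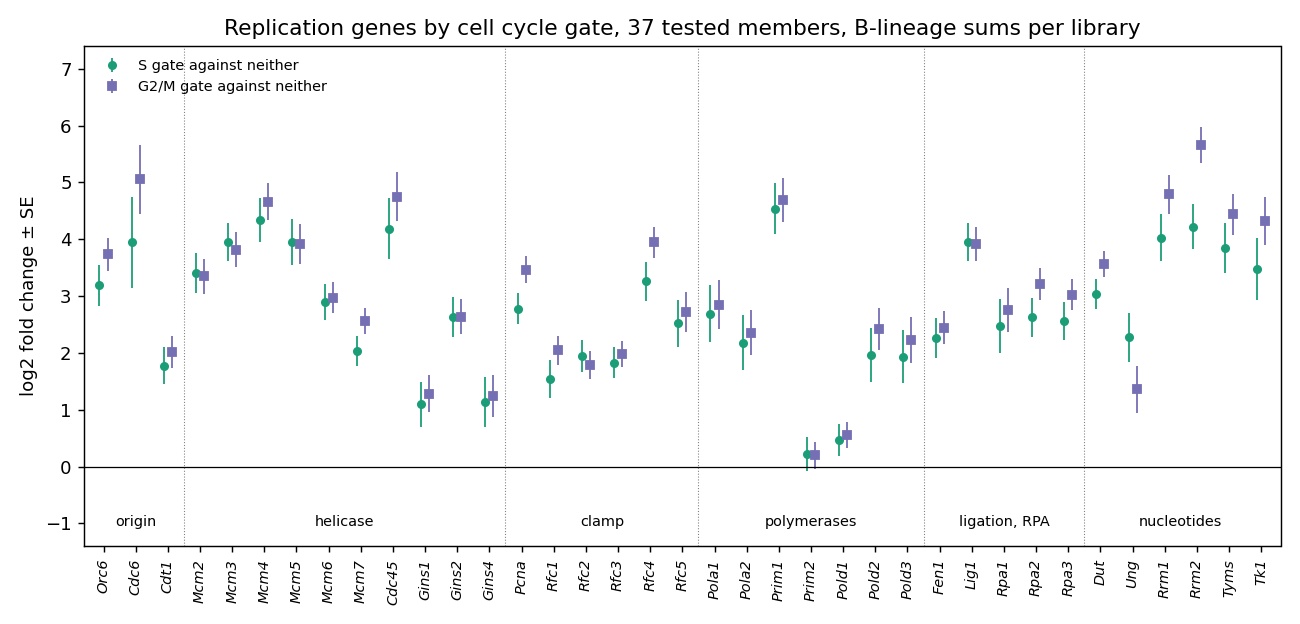
Log2 fold change ± SE of the 37 tested members, by role, for S gate cells (circles) and G2/M gate cells (squares) against B-lineage cells with no gate UMI. Prim2 and Pold1 sit near 0, and Rrm2 reaches 5.65 in the G2/M gate.

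Among polymerases and primase, 5 of 7 tested genes rose in both gates, and the other 2 were those with the most UMIs of that role. Prim1, the catalytic primase subunit, had the largest rise of the 37 tested in the S gate (4.54 ± 0.45, adjusted p 9.4e-09, edgeR), a size that depends on the fit, since cells with neither held 2, 0, 1, 1 and 3 of its UMIs. Prim2, the regulatory subunit that holds Prim1 in the same enzyme, stood at 58.05, 40.6, 118, 70.9 and 80.9 CPM in cells with neither, 55.8, 109, 87.5 and 91.1 in the S gate and 70.1, 70.1, 69.3, 59.7 and 118 in the G2/M gate. These ranges overlap throughout, and the log2 difference was 0.22 ± 0.30 and 0.20 ± 0.24 (adjusted p 0.68 and 0.55, edgeR). Pold1, the catalytic subunit of the lagging-strand polymerase, stood at 24.9, 99.6, 87.7, 77.1 and 111 CPM in cells with neither, 86.5, 109, 120.3 and 137 in the S gate and 105, 163, 116, 126 and 73.3 in the G2/M gate. Its differences were 0.47 ± 0.28 and 0.56 ± 0.23 (adjusted p 0.28 and 0.055, edgeR), and they did not pass. Young 1 was low for Pold1 among cells with neither and aged 3 was high there. Gated cells held 90.6, 51.0, 26.6, 30.7 and 40.5% of Prim2 UMIs and 93.3, 48.5, 41.3, 39.2 and 19.5% of Pold1 UMIs. In every library these parts lie closer to the gated cells' share of all UMIs than to their share of member UMIs. Pold1 passed in the G2/M gate in 1 of 11 alternatives, and Prim2 passed in none of the 11 in either gate.

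Set against each other, the S and G2/M gates differed for 1 member. Rrm2 was higher in the G2/M gate by 1.43 ± 0.25 (adjusted p 0.00021, edgeR), where 3.13% of all genes were higher and 0.918% were lower. With gates of at least 3 UMIs the difference was 0.49 and did not pass (adjusted p 0.877, edgeR). Ung had the lowest value, -0.92 ± 0.35 (adjusted p 0.17, edgeR). The count depended on young 1. Without it 11 of 35 members were higher in the G2/M gate and 0 lower, where 4.96% of all genes were higher and 3.02% lower. Of 25 tested genes of the S phase gate list, 7 were then higher in the G2/M gate and 0 lower. The G2/M gate is thus not a group low in S phase transcripts. With thinning to 1500 UMIs 9 of 32 members were higher and 1 lower.

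The 3 lists of other genes of the pathway were not used for the gates. For scale, 11.4% of all genes rose and 4.64% fell in the S gate, and 21.9% rose and 17.9% fell in the G2/M gate. Of 13 tested origin and fork factors, 9 rose in the S gate, 11 rose in the G2/M gate and 0 fell, with Gmnn, the inhibitor of CDT1, at 3.15 ± 0.29 in S, Rnaseh2b, a subunit of the nuclease that removes RNA from DNA, at 1.74 ± 0.32, and Wdhd1, a fork protein, at 2.63 ± 0.49. Of 20 other genes of nucleotide metabolism, 9 rose and 1 fell in S, and 12 rose and 1 fell in G2/M. Paics, of purine synthesis, rose by 2.05 ± 0.27, Dctpp1, which clears dCTP, by 3.09 ± 0.44 and Impdh2, of guanine nucleotide synthesis, by 1.58 ± 0.28 in S. The gene that fell in both gates was Samhd1, which breaks down deoxynucleotides (-1.03 ± 0.34 and -1.67 ± 0.29, adjusted p 0.036 and 2.7e-05, edgeR; named after its values were seen). Of 15 E2F, RB and G1 regulators, 9 rose and 1 fell in S, and 10 rose and 1 fell in G2/M. E2f1, an activating E2F factor, rose by 3.73 ± 0.31, Cdk4, the kinase of cyclin D, by 1.65 ± 0.24 and Cdkn2c, an inhibitor of that kinase, by 2.86 ± 0.47 in S. Cdkn1b, the inhibitor p27, was the one that fell (-0.97 ± 0.29 and -0.61 ± 0.22; named after its values were seen). Without young 1, 5 of 12 origin and fork factors, 6 of 19 genes of nucleotide metabolism and 7 of 14 regulators rose in S and 0 fell, where 6.04% of all genes rose. In G2/M 9, 11 and 9 of them rose and 0, 1 and 1 fell, where 21.3% of all genes rose and 22.9% fell.

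Across the 3 named B-lineage stages the members were lowest in pro-B-like and small pre-B-like cells and higher in MHC-II-expressing immature-like cells. The unnamed Igll1-expressing cluster, with 73 of its 124 cells from aged 2, was left out of these stages. As many pro-B markers (11) were detected in that cluster as in pro-B-like cells. The 42 genes together stood at 3988, 1102, 1420.3, 1544 and 1645 CPM in pro-B-like cells, 3513, 1343, 1788, 735 and 964 in small pre-B-like cells and 5530.1, 4051, 2831, 2999 and 2469 in MHC-II-expressing cells. Young 1 is the highest at each stage, and in every library the MHC-II-expressing cells lie above the other 2 stages. At equal depth, cells with at least 3 member UMIs made up 29.1, 11.1, 13.4, 12.96 and 16.05% of pro-B-like cells. They made up 38.2, 6.60, 9.73, 4.67 and 5.62% of small pre-B-like cells and 66.8, 18.3, 16.7, 14.7 and 11.9% of MHC-II-expressing cells. In the Igll1-expressing cluster they made up 54.5% in young 1 and 23.3 to 33.3% elsewhere. These shares lie above those of MHC-II-expressing cells in every library but young 1. Only aged 2 had enough cells of that cluster for a sum, 4699 CPM, against 2999 CPM in MHC-II-expressing cells. How the stage results would change with that cluster counted as pro-B-like was not tested. The MHC-II-expressing cells came from 2 clusters with unlike shares, 70.6, 31.4, 20.8, 21.7 and 14.5% in the larger and 40.0, 5.56, 5.26, 0 and 6.90% in the smaller. The smaller cluster (11 to 36 cells per library) lay below the pro-B-like cells in every library but young 1. The stage tests below pool both clusters. The larger held 177 of 202 such cells in young 1, 35 of 71 in young 2, 53 of 72 in young 3, 23 of 34 in aged 2 and 55 of 84 in aged 3. In aged 3 the share was higher in pro-B-like than in MHC-II-expressing cells, the reverse of the CPM order. The gates differed between stages as well. The G2/M gate held 34.5, 14.8, 4.88, 3.70 and 6.17% of pro-B-like cells, 54.5, 8.49, 7.08, 1.87 and 4.38% of small pre-B-like cells and 70.8, 15.5, 16.7, 11.8 and 13.1% of MHC-II-expressing cells. The S gate held 7.27, 14.8, 13.4, 12.96 and 11.1% of pro-B-like cells, 7.27, 6.60, 6.19, 6.54 and 1.88% of small pre-B-like cells and 12.4, 8.45, 11.1, 17.6 and 0% of MHC-II-expressing cells. Against MHC-II-expressing cells, the pro-B-like share was thus lower in the G2/M gate in every library, but higher in the S gate in young 2, young 3 and aged 3.

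Between pro-B-like and MHC-II-expressing cells, 26 members passed the filter on low counts. Of these, 15 were lower in pro-B-like cells and 1 was higher (edgeR, library as a term), where 13.8% of the 4063 genes tested were lower and 12.5% higher. The median of the 26 was -0.92 on the log2 scale, against -0.02 for all genes. Sums of a single stage could meet the filter, so that passing it is not independent of the difference. Without young 1, 15 of 20 members were lower and 1 higher, where 12.5% of all genes were lower and 11.2% higher. Of the gate lists, 9 of 14 S phase genes and 11 of 19 G2/M genes were lower too, and their part in the members' result was not tested. Mcm7 stood at 155, 63.9, 55.8, 95.6 and 85.8 CPM in pro-B-like and 276, 191, 187, 202 and 152 in MHC-II-expressing cells, lower in each library, with a difference of -1.09 ± 0.19 (adjusted p 3.3e-05, edgeR). Rrm2 stood at 286, 15.97, 42.9, 65.4 and 41.04 against 477, 442, 193, 167 and 212 CPM, again lower in each library (-1.70 ± 0.31, adjusted p 4.9e-05, edgeR). Rfc4, a clamp loader subunit, had the lowest value of the 26 (-1.75 ± 0.30). Orc6 (-1.36 ± 0.32), Lig1 (-1.18 ± 0.31) and Pcna (-0.95 ± 0.22) were also lower. Mcm6 (-0.52 ± 0.23, adjusted p 0.097) and Dut (-0.59 ± 0.23, adjusted p 0.054) did not pass by edgeR.

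Prim2 went the other way. It stood at 77.7, 159.7, 180.2, 171 and 175 CPM in pro-B-like cells and 77.9, 26.2, 56.00, 8.80 and 38.1 in MHC-II-expressing cells, and at 61.1, 30.3, 32.8, 21.6 and 25.2 in small pre-B-like cells. In young 1 the pro-B-like and MHC-II-expressing levels were the same within their counting error (19 and 61 UMIs), and in the other 4 libraries the pro-B-like level was the highest of the 3 stages. The fitted difference was 1.54 ± 0.29 (adjusted p 9.4e-05, edgeR), and it passed in all 11 alternatives with values from 1.31 to 2.31. No other member was higher in pro-B-like cells in at least 4 libraries, while 35 were lower in at least 4. Prim2 lies at chr1:33453810-33669795, minus strand, on GRCm38, and overlaps no protein-coding gene there. It overlaps 3 other annotated genes, Gm37618 on the same strand and Gm29228 and Gm17813 on the other. Their part in its counts was not tested.

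Pold1 was lower in pro-B-like cells: it stood at 61.4, 71.9, 30.04, 90.5 and 52.2 CPM there and 98.3, 157, 137, 141 and 109 in MHC-II-expressing cells, lower in each library (-1.09 ± 0.23, adjusted p 0.00043, edgeR), and passed in all 11 alternatives. Pold1 lies at chr7:44532746-44548849, minus strand, and Spib, which encodes a transcription factor of B cells, follows it by 675 bases on the same strand. Spib differed in the same direction (-2.29 ± 0.14). It is on the list of small pre-B markers used to build the clusters, so that its difference is not independent of the stages. Whether reads of one gene were counted for the other was not tested.

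**Figure D4:**
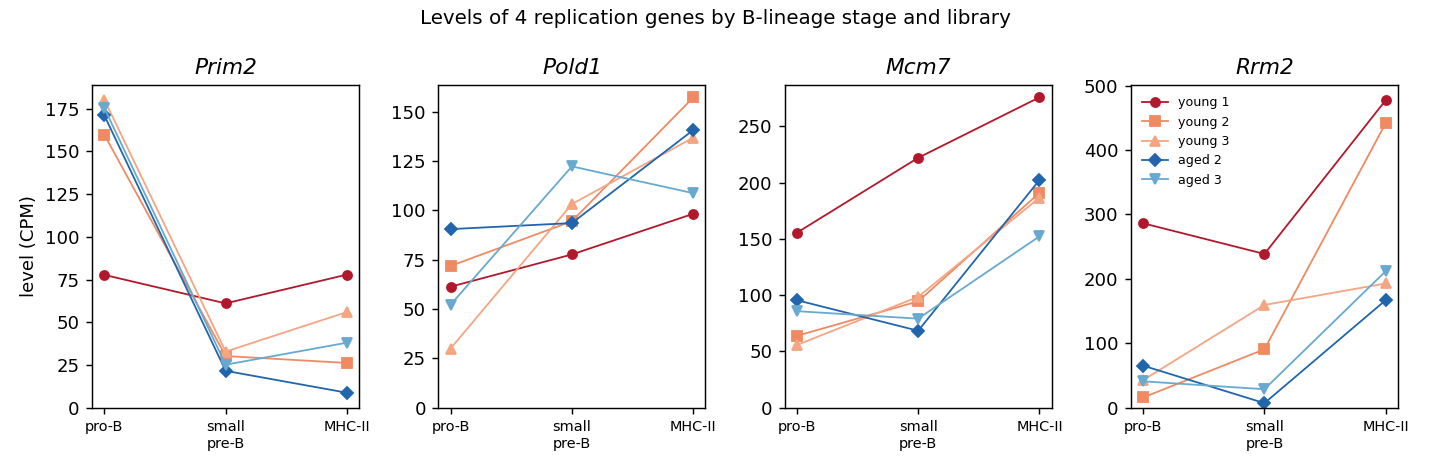
Level (CPM, linear axes from 0, a separate scale for each gene) of Prim2, Pold1, Mcm7 and Rrm2 in pro-B-like, small pre-B-like and MHC-II-expressing immature-like cells. Each line joins the values of 1 library; Prim2 is highest in pro-B-like cells of young 2, young 3, aged 2 and aged 3, while Mcm7 and Rrm2 are highest in MHC-II-expressing cells of every library.

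The stages were also compared in cells without any gate UMI, where young 1 had too few cells to enter. There 8.53% of the 2098 genes tested were higher and 8.82% lower in pro-B-like cells. The filter on low counts left only Prim2 and Pold1 of the 42, each at its higher levels in 1 of the 2 groups, so that their passing the filter is not independent of the difference. Prim2 stood at 233, 113 and 208 CPM in pro-B-like cells of young 3, aged 2 and aged 3 (27, 7 and 21 UMIs). In MHC-II-expressing cells of young 2, young 3 and aged 3 it stood at 10.3, 68.8 and 11.5 CPM (1, 4 and 1 UMIs). The groups do not overlap, and the difference was 2.75 ± 0.58 (adjusted p 0.00044, edgeR). Only young 3 and aged 3 held sums of both stages, so that the direct comparison within a library rests on them. Without aged 3 it was 2.12 and did not pass (adjusted p 0.089, edgeR). Pold1 stood at 25.9, 64.4 and 49.5 CPM against 124, 189 and 115 CPM in the same libraries, a difference of -1.63 ± 0.51 (adjusted p 0.02, edgeR) that passed in 6 of 10 alternatives, but not without young 3 (adjusted p 0.351, edgeR) or without aged 3. With no filter 40 members entered and these 2 passed, with differences of 2.71 and -1.69 (adjusted p 0.00017 and 0.038, edgeR). The 42 genes together were at 863, 837 and 1020.1 CPM in these pro-B-like cells and at 814, 894 and 710.5 CPM in the MHC-II-expressing cells.

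Small pre-B-like cells, compared with MHC-II-expressing cells in the same fit, had 16 of 26 members lower and 0 higher, where 4.43% of all genes were lower and 2.71% higher. The median of the 26 was -1.10, against 0.00 for all genes, and without young 1, 14 of 20 were lower. Without young 2 the count was 9 of 26, with DESeq2 it was 11 of 26, and with clusters built on variable genes it was 8 of 12. Lig1 had the lowest value (-1.93 ± 0.34, adjusted p 0.00025, edgeR). Dut (-1.51 ± 0.25), Rrm2 (-1.63 ± 0.30), Tyms, which makes thymidylate (-1.69 ± 0.39), and Pcna (-1.29 ± 0.22) were lower as well. The Rrm2 call was lost with DESeq2 (adjusted p 0.08). Prim2 (-0.63 ± 0.38, adjusted p 0.37) and Pold1 (-0.37 ± 0.21, adjusted p 0.32) did not pass by edgeR. Both stage contrasts share the MHC-II-expressing cells.

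The other pathway genes are read against 13.8% of all genes lower and 12.5% higher in pro-B-like than in MHC-II-expressing cells, and a share near these is no result about a list. Of these genes, 2 of 11 tested origin and fork factors were lower in pro-B-like cells (Gmnn -1.54 ± 0.27 and Rnaseh2b -0.91 ± 0.30) and 2 of 11 in small pre-B-like cells (Gmnn -1.24 ± 0.25 and Rnaseh2c -0.77 ± 0.24). In nucleotide metabolism 4 of 16 were higher and 3 lower in pro-B-like cells. Impdh1, of guanine nucleotide synthesis, was higher there by 3.26 ± 0.27, Dck, which salvages deoxycytidine, was higher by 0.72 ± 0.17, and Samhd1 was lower (-2.0 ± 0.30). In small pre-B-like cells, where 4.43% of all genes were lower and 2.71% higher, 0 of 16 were higher and 3 lower (Paics -1.14 ± 0.27, Dtymk, which makes dTDP, -0.91 ± 0.24 and Impdh2 -0.74 ± 0.22). Among 14 regulators, E2f2 (-1.91 ± 0.24) and E2f1 (-1.81 ± 0.29), both activating E2F factors, were 2 of the 4 lower in pro-B-like cells, and Cdkn1a, the inhibitor p21, was 1 of the 3 higher there (1.66 ± 0.24). In small pre-B-like cells 6 were lower and 1 higher, with E2f1 (-1.64 ± 0.27), Cdk2 (-1.34 ± 0.30) and Cdk4 (-0.75 ± 0.20) of smallest p. Without young 1, 10 origin and fork factors, 14 genes of nucleotide metabolism and 12 regulators were tested. Of these, 1, 2 and 3 were lower in pro-B-like cells and 0, 3 and 3 higher. Of all genes, 12.5% were lower there and 11.2% higher. In small pre-B-like cells 1, 4 and 4 were lower and 0, 1 and 1 higher. Of all genes, 4.94% were lower and 2.85% higher in that comparison.

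In young 1 alone, G2/M-gated cells were numerous enough to be split by class, with no replicate. The 42 genes stood at 5807 CPM (95% exact Poisson interval 5386 to 6253; 19 cells) in pro-B-like cells and at 5815 CPM (5625 to 6009; 143 cells) in MHC-II-expressing cells. They stood at 4579 CPM (4182 to 5003; 30 cells) in small pre-B-like cells. In the unnamed cluster led by Nrgn and Pclaf they stood at 7085 CPM (6969 to 7202; 336 cells), the highest of the 4. Prim2 stood at 82.6 CPM in pro-B-like, 79.9 in MHC-II-expressing, 56.2 in small pre-B-like and 67.6 CPM in unnamed cells, with overlapping intervals.

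No member passed the test between young and aged libraries. Among all B-lineage cells 41 members were tested and 0 passed, as did 0 (0%) of the 7668 genes (edgeR), with 4 members at an unadjusted p under 0.05. That last number ran from 0 without aged 2 or aged 3 to 24 without young 3, and was 28 of 42 with no filter. The median of the 41 was -0.82, with 40 below 0, and it was -0.25 without young 1. DESeq2 called 0 as well, with 7 at an unadjusted p under 0.05. The summed level was 4091 ± 1951 CPM (SD, n = 3) in young and 2669.7 ± 373 CPM (SD, n = 2) in aged libraries, a difference of -1421 CPM (two-sided exact permutation test, p = 0.5, 10 regroupings, of which the smallest possible p is 0.1). The groups overlap, and without young 1 the difference was -329.7 CPM. The share of cells with at least 3 member UMIs was 35.4% in young and 15.3% in aged libraries on average, a difference of -20.1 percentage points (p = 0.7 by the same exact test) that became -0.126 without young 1.

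The same held once cells were split by gate. In gated cells 39 members were tested and 0 passed (0% of 4655 genes), with a median of -0.19 and 0 members at an unadjusted p under 0.05 by edgeR or DESeq2. In cells with no gate UMI 9 were tested and 0 passed (0% of 4546 genes), with a median of -0.26, 0 members at an unadjusted p under 0.05 by edgeR and 1 by DESeq2. Prim2 had the highest value of the 41 in all B-lineage cells (0.02 ± 0.31) and Mcm10, a factor that helps start the helicase, the lowest (-1.78 ± 0.84).

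Myeloid cells came almost all from young 1, so the 174 cells there are described without a test. Their median depth was 9524.5 UMIs, against 3734 in B-lineage cells of the same library. The 42 genes together stood at 3085 CPM (95% exact Poisson interval 3007 to 3164), which is 49.2% of the B-lineage level of that library (6273 CPM, 6192 to 6356). A list of 12 pan-B genes stood at 9.16% of its B-lineage level in the same myeloid cells, and its part in their member UMIs was not tested. Monocyte-like cells had 3482 CPM (3337 to 3631; 47 cells) and neutrophil-like cells 2931 (2779 to 3089; 25 cells). Basophil-like cells, whose leading gene was the globin Hbb-bt, had 2289 (2102 to 2488; 35 cells). Subcluster 1, led by H2-Aa and Cd74, had 3168 (45 cells) and subcluster 4, led by Dntt and Flt3, 2985 (22 cells). The leading genes of these subclusters are on none of the neutrophil, monocyte or basophil marker lists. Both count toward the myeloid values here, although their lineage is uncertain. Monocyte-like cells were thus the highest and basophil-like cells the lowest, with intervals that do not overlap. At equal depth, 68.1% of monocyte-like cells had at least 3 member UMIs, against 28.6% of basophil-like, 28.0% of neutrophil-like and 42.2 and 40.9% of the other 2.

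In young 1, myeloid cells in the G2/M gate and those with no gate UMI lay closer together than the same groups of B-lineage cells did. The members stood at 2866 CPM (2754 to 2982; 63 cells) in G2/M-gated myeloid cells and 2447 CPM (2226 to 2685; 23 cells) in those with no gate UMI. The 40 myeloid cells in the S gate and the 48 in none of these groups were not summed apart. All 174 together stood at 3085 CPM, above both values, so the comparison does not cover the S gate. B-lineage cells of that library had 6654 and 1783 CPM in the same gates. Whether this difference between lineages exceeds the spread between libraries could not be tested, as 1 library held the cells. By gene, Rrm2 was at 88.2 CPM in myeloid and 469 CPM in B-lineage cells, Pcna at 192 against 579 and Dut at 403 against 764. Rfc2, a clamp loader subunit, was at 124 (108 to 140.2) against 137 (125 to 149.5), with overlapping intervals. The 20 endothelial-like cells of all libraries had 795 CPM (573 to 1075), with 0 Rrm2 UMIs among 52832, which allows up to 69.8 CPM (upper bound of the same interval).

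**Figure D5:**
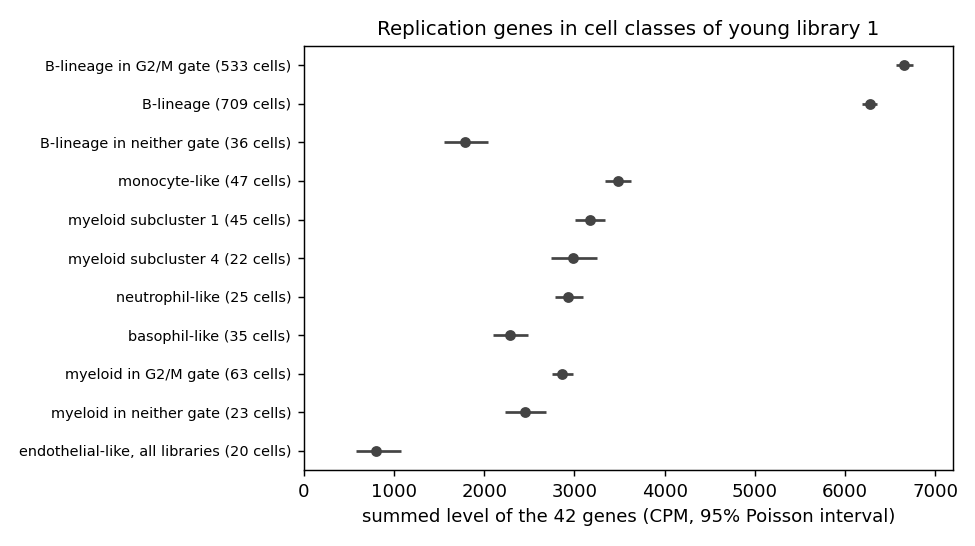
Summed level of the 42 replication genes (CPM, linear axis from 0) in cell classes of young 1, with endothelial-like cells of all 5 libraries as the last row; bars are 95% exact Poisson intervals. B-lineage cells in the G2/M gate (6654 CPM) and in neither gate (1783 CPM) lie on either side of all myeloid classes (2289 to 3482 CPM).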

How the data were processed

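The authors deposited raw UMI counts per gene and barcode. Cell Ranger and mm10 are named in the submitters' processing notes, as are R 3.5.2, edgeR 3.24.3 and DESeq2 1.22.2 without a role. Barcodes were kept from 500 detected genes and 1000 UMIs upward if 13 mitochondrial genes held no more than 10% of their UMIs. Cells were clustered (scanpy 1.11.5, leidenalg 0.10.2) on 118 marker genes with 15 components, 15 neighbours and resolution 0.6. The 58 cells marked as doublets were kept, and their removal was an alternative. Counts were summed per library and class (at least 20 cells) and tested with edgeR 4.0.16 (TMM, filterByExpr) in R 4.3.3, with Benjamini-Hochberg adjustment over all genes, and checked on simulated data. DESeq2 1.42.0, library size alone, no filter, other gates, other clusterings and leaving out each library were alternatives. Symbols matched 27645 of 27998 identifiers, and positions came from GENCODE on GRCm38. Values per library are given for the 2 most counted members of each role plus Orc1, Cdc6 and Tk1, and up to 3 genes of smallest p per pathway list. Single genes named beyond that (Prim1, Rfc4, Ung, Gins1, Gins4, Tyms, Mcm10, Rfc2, Spib) were chosen after their values were seen. The members and lists were chosen with earlier results of these data known. Total counts per library were 935656 to 5900751, and replicate numbers in young 2 and aged 2 and in young 3 and aged 3 were checked as pairs.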

Additional observations from a re-analysis of the deposited data

How the results depend on the processing

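Each count of members passing the test was recomputed under the alternatives, and no named member that passed changed direction. For small pre-B-like against MHC-II-expressing cells, 16 members became 8 with clusters on variable genes and 9 to 16 when 1 library was left out. For pro-B-like against MHC-II-expressing cells without gate UMIs, 2 became 1 with DESeq2, 1 with clusters on variable genes and 0 to 2 when 1 library was left out, fewest without aged 3. For the G2/M gate against the S gate, 1 became 2 without a filter, 0 with gates of 3 UMIs, 10 with thinning to 1500 UMIs and 1 to 11 when 1 library was left out, most without young 1. The causes were not tested. Of the values of single named members, 684 kept their side of the threshold, 24 passed newly and 27 no longer passed.

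Over all genes, DESeq2 called 693 where edgeR called 1067 for pro-B-like cells, 127 against 290 for small pre-B-like cells, and 394 against 648 for the S gate, which fell to 299 without young 1. With no filter, 80 genes passed by age in all B-lineage cells. Library size alone moved the all-gene median by age from -0.01 to 0.12.

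Young and aged libraries share replicate numbers 2 and 3. With the replicate block 0 members passed in each age comparison, and 6, 5 and 7 genes in all passed against 0 without it. The paired difference was -329.7 CPM in summed level and -0.126 percentage points in the share of cells. Deviations of same-numbered libraries correlated at r = 0.302 and 0.159, over 2 pairs, and with 2 aged libraries these 2 values are not independent. Whether the number marks more than a name was not settled by them, and the labels do not say. The UMI depth of most B-lineage cells limits single members to pooled sums.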
